A study of Mus musculus with 6 samples.

Results

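The genes described here are 10 genes of red pulp macrophages and iron recycling in the spleen, namely Spic, Slc40a1, Hmox1, Vcam1, Cd5l, C1qa, C1qb, C1qc, Adgre1 and Slc11a1. They were taken by name, with no threshold on a measured value, from a table of 40808 Entrez gene IDs, and all 10 were present and passed the filter on low counts. The table holds counts of mRNA 3′ ends from mouse spleen, with 3 libraries labelled as given no Dox (replicates 4, 5 and 6) and 3 labelled as given Dox (replicates 10, 11 and 12). All mice had received transplanted bone marrow, and the RNA was, per the labels, from leukaemia cells in their spleens; donor and host cells are not told apart. The labels do not spell out Dox or give its dose and duration, the gene it was meant to switch, or the strain, sex and age of the mice. They also do not say whether each library came from its own mouse, so p-values measure the spread between these libraries, which may be technical in part.

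Red pulp macrophages engulf aged red blood cells and return the iron of haemoglobin to the blood. Haem is opened by haem oxygenase, the freed iron is stored in ferritin or leaves through ferroportin, and a rise in haem removes the repressor BACH1 from genes such as Spic and Hmox1. These cells are also a source of C1q, the recognition protein of the classical complement pathway.

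Library totals ran from 5541486 to 8725767 counts, and 3 counts, the most that a count of 0 allows, corresponded to 0.344 to 0.541 CPM (a count relative to its library's total; this limit covers counting error only). Several library-wide measures followed the groups. Haemoglobin genes together took 8.61 to 9.04% of counts without Dox and 14.1 to 15.9% with Dox. Single haemoglobin genes differed in direction, as given below with the erythroid markers. Among genes with 1 to 30 counts, 27.9 to 43.0% had 3 or fewer in the libraries without Dox, against 15 to 16% with Dox, and the biological coefficient of variation was 0.19 without Dox and 0.515 with Dox. Xist had 193 to 324 counts without Dox and 3347 to 5669 with Dox, and 4 genes of the Y chromosome (Uty, Kdm5d, Ddx3y and Eif2s3y) together had 545 to 801 counts without Dox and 0 in each Dox library. Sex-linked expression and Dox therefore cannot be told apart here.

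The comparison asked how expression differed between the spleen libraries with and without Dox. Of the 10 genes, 4 were lower and 0 were higher with Dox by edgeR's quasi-likelihood test, at a Benjamini-Hochberg adjusted p under 0.05 over all genes. At an unadjusted p under 0.05, C1qa was also higher, and DESeq2 and limma-voom each called 1 gene higher. Across all 14110 tested genes, 45.6% passed in either direction, 22.1% lower and 23.6% higher. The genes that fell were Cd5l, Adgre1, C1qb and C1qc, and these were also the only ones of the 10 whose groups did not overlap, against 59.6% of all tested genes. The median log2 fold change of the 10 genes was -0.48, beside 0.07 for all tested genes. The split depended on scaling: by library size only, which raised the all-gene median by 0.31, 3 genes were higher and 3 lower. Among the Dox libraries, replicate 12 was the lowest for Slc40a1, Hmox1, Slc11a1, Vcam1 and C1qa and the highest for Spic, Adgre1, Cd5l and C1qc.

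**Figure D1:**
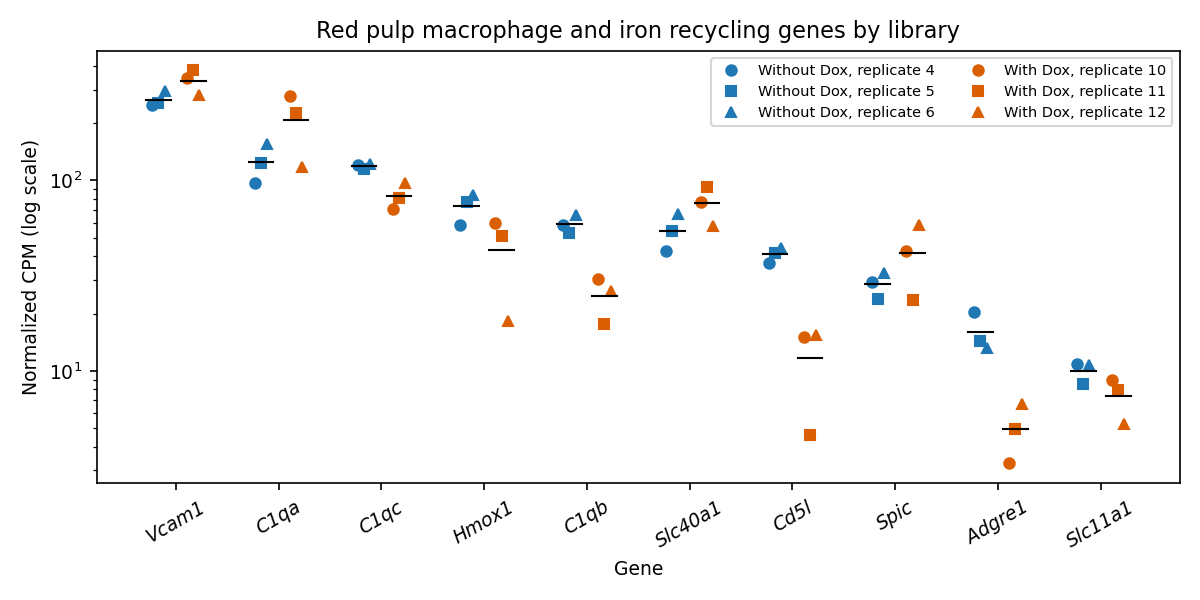
Normalized CPM (log axis) of the 10 genes in each of the 6 libraries, ordered by the mean without Dox; points are libraries and black lines are group means (n = 3 per group). Cd5l, C1qb, C1qc and Adgre1 show no overlap between the groups, and Dox replicate 12 lies apart from the other Dox libraries for Hmox1 and C1qa.

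Levels are given as CPM after TMM scaling. Because the kit reads 1 stretch at the 3′ end of each transcript, levels were compared between genes without dividing by length. Without Dox the order of mean levels was Vcam1, C1qa, C1qc, Hmox1, C1qb, Slc40a1, Cd5l, Spic, Adgre1 and Slc11a1. Among neighbours in this order, C1qa at 125 ± 29.5 and C1qc at 119 ± 3.3 CPM (SD, n = 3 each) differed by less than their spread. The libraries of Hmox1, C1qb and Slc40a1 overlapped as well, with means of 54.4 to 73.2 CPM and SDs of 6.27 to 13, and so did those of Slc40a1 and Cd5l, while Vcam1 lay above C1qa, C1qc above Hmox1, Cd5l above Spic, Spic above Adgre1 and Adgre1 above Slc11a1 in every library of this group. With Dox, Vcam1 was still highest, followed by C1qa, C1qc and Slc40a1, and Adgre1 had become the lowest, at 4.98 ± 1.73 CPM (SD, n = 3) beside Slc11a1 at 7.39 ± 1.91.

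Spic (Entrez gene 20728, chr10:88675269-88683023; coordinates in GRCm38.p6) encodes the transcription factor on which the development of red pulp macrophages depends. It had 29.2, 23.9 and 32.5 CPM without Dox and 42.5, 23.7 and 58.4 CPM with Dox. Dox replicate 11 lay just below the lowest library without Dox, and replicates 10 and 12 lay above the highest. The log2 fold change was 0.54 ± 0.32 (SE), which did not pass the threshold (edgeR adjusted p = 0.205). Leaving out Dox replicate 11 gave a log2 fold change of 0.79 (adjusted p-value 0.0314), leaving out Dox replicate 12 gave 0.19 (0.626), and leaving out replicate 5 without Dox gave 0.35 (0.524). With library size only it was 0.84 (0.0544).

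Slc40a1 (Entrez gene 53945, chr1:45908070-45926532) encodes ferroportin, the exporter through which iron leaves the macrophage. It had 42.5, 54.1 and 66.6 CPM without Dox and 77.2, 92.2 and 58.0 CPM with Dox. Replicates 10 and 11 lay above all libraries without Dox, while replicate 12 lay among them. The log2 fold change of 0.48 ± 0.24 (SE) did not pass the threshold (edgeR adjusted p = 0.129). It was 0.62 when Dox replicate 12 was left out (adjusted p-value 0.0328), 0.29 when Dox replicate 11 was left out (0.381) and 0.29 when replicate 4 without Dox was left out (0.461). With library size only it was 0.79 (adjusted p-value 0.0276).

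Hmox1 (Entrez gene 15368, chr8:75093618-75100593) encodes the inducible haem oxygenase, which opens the haem ring. It had 58.7, 77.4 and 83.6 CPM without Dox and 59.7, 51.0 and 18.3 CPM with Dox. Replicate 12 was the lowest, and replicate 10 lay within the range without Dox. The log2 fold change was -0.77 ± 0.37 (SE), and the call depended on the test and the filter. The adjusted p-value was 0.119 by edgeR, 0.0275 by limma-voom with a weight for each group and 0.0751 by DESeq2. With no filter on low counts, edgeR gave -0.89 with an adjusted p-value of 0.00196. Leaving out Dox replicate 12 moved the log2 fold change to -0.42, and leaving out Dox replicate 10 moved it to -1.10.

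Slc11a1 (Entrez gene 18173, chr1:74375014-74386057) encodes a divalent metal transporter of the phagosome membrane that moves iron and manganese. It was the lowest of the 10 genes without Dox, with 42 to 73 counts per library. It had 10.9, 8.51 and 10.7 CPM without Dox and 8.98, 7.93 and 5.27 CPM with Dox. Replicate 10 with Dox lay within the range without Dox. The log2 fold change of -0.44 ± 0.41 (SE) was about as large as its error (edgeR adjusted p = 0.407), so that a change of this size was not detectable at this depth and spread. Over the 15 alternatives it ran from -0.63 to -0.12, and none passed the threshold.

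Adgre1 (Entrez gene 13733, chr17:57358581-57483529) encodes F4/80, the surface receptor used as a general marker of mouse tissue macrophages. It had 20.4, 14.4 and 13.2 CPM without Dox and 3.27, 4.94 and 6.72 CPM with Dox. Every Dox library lay below every library without Dox. Adgre1 fell by 1.68 on the log2 scale (standard error 0.41, edgeR adjusted p = 0.0079), from 71 to 137 counts per library to 24 to 51. Leaving out replicate 4 without Dox gave an adjusted p-value of 0.0551, with a log2 fold change of -1.52. In bulk RNA, fewer macrophages and less of this RNA per macrophage cannot be told apart, and this holds for every gene described here.

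Cd5l (Entrez gene 11801, chr3:87357881-87371074) encodes a secreted scavenger receptor cysteine-rich protein made by tissue macrophages. It had 37.0, 41.8 and 44.4 CPM without Dox and 15.1, 4.63 and 15.4 CPM with Dox. Replicate 11 was the lowest Dox library, and the groups lay well apart. Cd5l fell by 1.82 on the log2 scale (standard error 0.41, edgeR adjusted p = 0.0052). It was the only gene of the 10 that passed the threshold under each of the 15 alternatives run of scaling, filter, test and left-out library, with log2 fold changes from -2.09 to -1.45.

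Vcam1 (Entrez gene 22329, chr3:116110020-116129688) encodes an adhesion molecule that marks red pulp macrophages and is also made by endothelium and stroma. It was the highest of the 10 genes, at 249, 256 and 293 CPM without Dox and 345, 379 and 280 CPM with Dox. Dox replicate 12 lay within the range without Dox. The log2 fold change of 0.33 ± 0.17 (SE) did not pass the threshold (edgeR adjusted p = 0.129). It was 0.43 when Dox replicate 12 was left out (adjusted p-value 0.0187) and 0.21 when Dox replicate 11 was left out (0.369), and the other 4 fits with a library left out also did not pass. With library size only it was 0.64 (adjusted p-value 0.013), and with at least 10 counts required in every library it was 0.45 (0.0417). The summed level of 15 endothelial and stromal markers, of which 14 were tested and 7 were higher and 2 lower (45.6% of all tested genes passed), was 405 to 442 CPM without Dox and 953 to 1021 CPM with Dox. Its part in the level of Vcam1 was not tested.

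**Figure D2:**
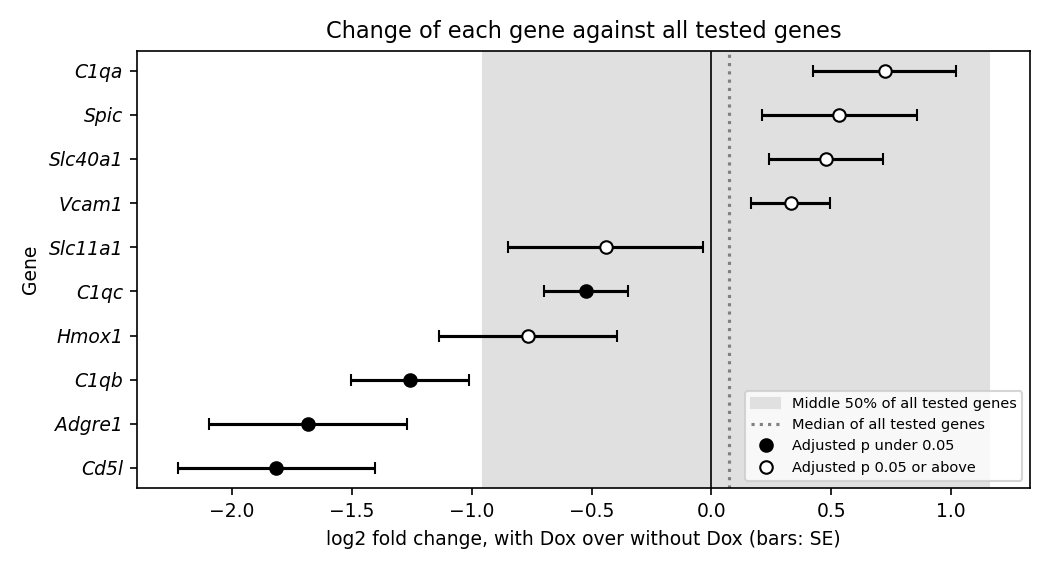
Log2 fold change (with Dox over without Dox) of the 10 genes with its standard error, from 3 libraries per group; filled points have an adjusted p-value under 0.05. The grey band spans the middle 50% of all tested genes, from -0.95 to 1.16 on the log2 scale, and Cd5l, Adgre1 and C1qb lie below it.

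The 3 chains of C1q, which assemble in equal numbers into one protein, had different fold changes. Their genes lie next to each other on mouse chromosome 4 (build GRCm38.p6), with C1qb (Entrez gene 12260) at 136880126 to 136886200, C1qc (12262) at 136889801 to 136892936 and C1qa (12259) at 136895916 to 136898844, and no other RefSeq gene between them. Their longest GENCODE transcripts are of like length, at 1088, 1203 and 1040 bases. The promoter table used here (RefSeq, build GRCm38.p6) matched 5 of the 10 genes (Slc11a1, Cd5l, C1qb, C1qc and Spic). The 250 bases upstream of the start of C1qb (chr4:136886201-136886450, minus strand) and of C1qc (chr4:136892915-136893164, minus strand) are shown because these neighbours are expressed by the same cells and the ratio of their counts did not overlap between the groups. The start of C1qc in the promoter table lies slightly inside the gene's span given above, so its window overlaps the end of that span, and distances are from the table's start. Capitals mark matches, on either strand, to the core GAGGAA bound by PU.1 and SPI-C or to TGACNNNGC, the core of the element bound by NRF2 and BACH1.
C1qb: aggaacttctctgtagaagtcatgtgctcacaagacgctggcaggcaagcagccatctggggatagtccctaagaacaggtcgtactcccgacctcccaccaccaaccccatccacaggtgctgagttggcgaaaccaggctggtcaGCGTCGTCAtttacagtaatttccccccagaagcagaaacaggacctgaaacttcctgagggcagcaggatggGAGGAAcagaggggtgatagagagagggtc
C1qc: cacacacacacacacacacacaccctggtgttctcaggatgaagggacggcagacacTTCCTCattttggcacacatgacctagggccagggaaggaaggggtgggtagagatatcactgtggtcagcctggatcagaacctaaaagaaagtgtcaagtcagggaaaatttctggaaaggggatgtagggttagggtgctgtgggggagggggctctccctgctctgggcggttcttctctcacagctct
The C1qb window held GAGGAA with its first base 30 bases upstream of the start, and TGACNNNGC on the opposite strand with the match beginning 103 bases upstream. The C1qc window held GAGGAA on the opposite strand 193 bases upstream and no match to TGACNNNGC. Of 32851 promoter windows of this length, 23.3% held GAGGAA and 10.2% held TGACNNNGC, so such matches are common and describe only the letters. Neither window held TGCTGAC (a site of MAF factors, in 3.8% of windows) or CACGTG (the E-box of TFEB and MITF, in 6.0%). The Spic window held none of these 4 motifs.

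C1qa had 96.7, 123 and 156 CPM without Dox and 277, 226 and 118 CPM with Dox. Dox replicate 12 lay within the range without Dox and the other Dox libraries above it. The log2 fold change was 0.72 ± 0.30 (SE), short of the threshold (edgeR adjusted p = 0.0732), and 8 of the 15 alternatives gave an adjusted p-value under 0.05, in a range of 0.0022 to 0.29. By DESeq2 it passed, with an adjusted p-value of 0.0449. Leaving out Dox replicate 12 gave a log2 fold change of 0.99 (adjusted p-value 0.0024), and leaving out Dox replicate 10 gave 0.43 (0.29).

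C1qb had 58.7, 53.1 and 65.6 CPM without Dox and 30.4, 17.6 and 26.4 CPM with Dox. No Dox library reached the lowest library without Dox. C1qb fell by 1.26 on the log2 scale (standard error 0.25, edgeR adjusted p = 0.0024), and it passed the threshold without each library in turn. C1qc had 120, 115 and 122 CPM without Dox and 71.0, 80.5 and 97.0 CPM with Dox. It fell by 0.52 on the log2 scale (standard error 0.18, edgeR adjusted p = 0.0337), but the call was lost when any of 5 single libraries was left out, with adjusted p-values up to 0.0818; of the 6 such fits, it held in the one without Dox replicate 12. The call was also lost with library size only (log2 fold change -0.22, adjusted p = 0.328), with upper-quartile factors (adjusted p = 0.0712) and with at least 10 counts required in every library (adjusted p = 0.0782).

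Ratios within a library do not depend on scaling. C1qa had 1.65, 2.32 and 2.37 counts per C1qb count without Dox and 9.10, 12.8 and 4.46 with Dox. The log2 ratio averaged 1.06 ± 0.29 in the group without Dox and 3.01 ± 0.78 in the Dox group (SD, n = 3 libraries), with every Dox library above every library without Dox (exact two-sided permutation p = 0.1, the smallest that 3 against 3 allows, and 0.157 adjusted over the 11 ratios computed). C1qc had 1.85 to 2.17 counts per C1qb count without Dox and 2.34, 4.56 and 3.67 with Dox, again without overlap (exact two-sided permutation p = 0.1). C1qa made up 35.1, 42.3 and 45.4% of the counts of the 3 chains without Dox and 73.2, 69.7 and 48.8% with Dox. Replicate 12 with Dox was thus closest to the group without Dox in its mix of chains. Summed over the 3 chains, C1q took 0.0239, 0.0260 and 0.0318% of library counts without Dox and 0.0428, 0.0361 and 0.0259% with Dox, and the groups overlapped (exact two-sided permutation p = 0.3).

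**Figure D3:**
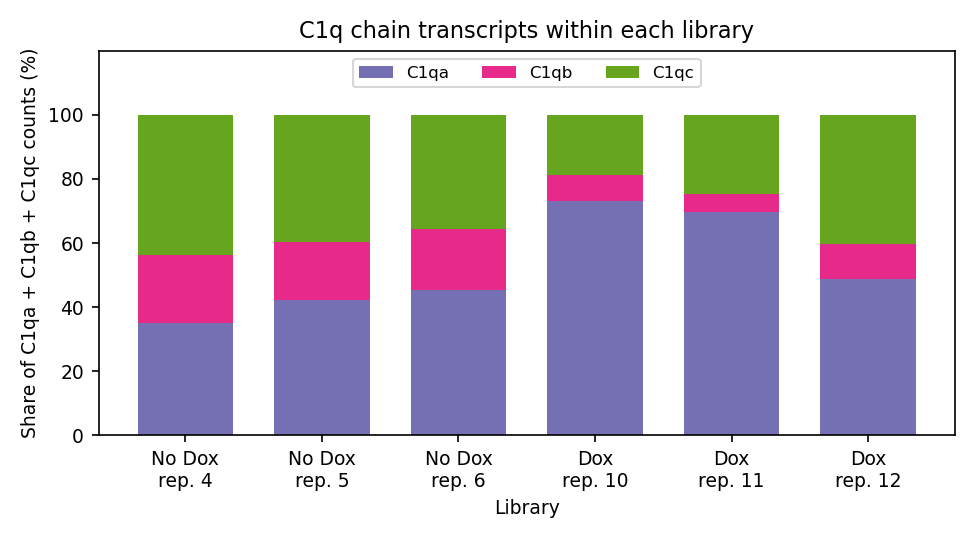
Share of the summed C1qa, C1qb and C1qc counts held by each gene in each library (stacked bars, 1 bar per library). C1qb held 18.2 to 21.3% without Dox and 5.43 to 10.9% with Dox.

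With the trend of fold change on transcript length over all genes removed (an alternative added after seeing the data, with lengths for 90.2% of tested genes), the log2 fold changes of the chains were 1.55 for C1qa (edgeR adjusted p = 0.0022), -0.44 for C1qb (adjusted p = 0.185) and 0.25 for C1qc (adjusted p = 0.295). The order of the chains was C1qa, C1qc and C1qb with and without this step, while the calls and the sign of C1qc were not the same. Hmox1 moved to -0.23 under this step (adjusted p = 0.629), and Cd5l and Adgre1 still passed the threshold, at -1.45 and -1.60.

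To set the other genes against a general macrophage marker, each was divided within the library by Adgre1. Relative to Adgre1, the ratios of Spic, Slc40a1, Vcam1, C1qa and C1qc were higher in every Dox library than in every library without Dox (exact two-sided permutation p = 0.1 each, 0.157 adjusted over the 11 ratios). Slc40a1 had 2.08, 3.74 and 5.01 counts per Adgre1 count without Dox and 23.2, 18.5 and 8.55 with Dox. Spic had 1.43, 1.66 and 2.45 without Dox and 12.8, 4.75 and 8.61 with Dox. Adgre1 itself fell without overlap (log2 fold change -1.68), so dividing by it raised the difference of every gene by the same shift. C1qc, which fell, thus came out higher. These ratios depended on the reference gene. Csf1r, the receptor for the growth factor on which macrophages depend, had 72.2, 82.5 and 98.8 CPM without Dox and 160, 191 and 73.9 CPM with Dox and did not pass (log2 fold change 0.75, edgeR adjusted p = 0.074). Relative to Csf1r, the differences in mean log2 ratio were -0.17 for Slc40a1 and -0.19 for Spic in place of 2.19 and 2.16, and that for C1qa was 0.015 in place of 2.37. Relative to Csf1r, Cd5l differed by -2.64, C1qb by -1.93 and Hmox1 by -1.57. Among the Dox libraries, Spic was highest in replicate 12 (58.4 CPM), where Csf1r was lowest. It was lowest in replicate 11 (23.7 CPM), where Csf1r was highest. The differences relative to Csf1r were not recomputed with single libraries left out, so the sign of those for Spic, Slc40a1 and C1qa is not secured.

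The list of other tissue macrophage markers had calls in either direction at about the rate of all tested genes (45.6%), but mostly higher. Of 21 listed, 19 were tested, 8 were higher, 1 was lower and 10 did not pass. Among all tested genes, 23.6% were higher and 22.1% lower. The list had a median log2 fold change of 0.44 beside 0.07 for all tested genes. Aif1, which encodes a calcium-binding protein of macrophages, rose from 27.7 ± 3.4 to 137 ± 19 CPM, and Lyz2, which encodes lysozyme and is also expressed by neutrophils, rose from 18.4 ± 2.6 to 56.5 ± 22.2 CPM (SD, n = 3 each; edgeR adjusted p = 1.64e-05 and 0.0017). Itgad, the integrin subunit CD11d found on red pulp macrophages, fell from 5.25 to 7.01 CPM in the libraries without Dox to 0.395 to 2.04 CPM in those with Dox (edgeR adjusted p = 0.0274), from 47 counts or fewer per library. Treml4, a receptor of red pulp macrophages, had 3.73 to 7.90 CPM without Dox and 10.6 to 26.5 CPM with Dox and rose (adjusted p = 0.0218). The calls of Itgad and Treml4 were each lost in 3 of the 6 fits that left out a library, with adjusted p-values up to 0.13 and 0.105. Itgad was the 1 lower gene of the list, and with library size only it did not pass (adjusted p = 0.0512). When any one library without Dox was left out, the list had 4 or 5 calls in place of 9, and 0 of them were lower. Vsig4, a macrophage complement receptor, had 0 counts in all libraries.

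Macrophages of the marginal zone, which borders the red pulp, were described by 5 genes. Of these, 4 were tested and 2 passed, both higher, where 23.6% of all tested genes were higher and 22.1% lower. Marco, their scavenger receptor, rose from 7.46, 7.09 and 13.1 CPM to 153, 166 and 88.7 CPM (log2 fold change 3.88 ± 0.33 (SE), edgeR adjusted p = 1.59e-05). Cd209b, which encodes the lectin SIGN-R1, had 0 to 2 counts without Dox and 14 to 87 counts with Dox (edgeR adjusted p = 0.0107, and up to 0.0579 with a library left out).

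Of 36 other genes of haem and iron handling, 31 were tested, 10 were higher, 7 were lower and 14 did not pass, where 45.6% of all tested genes passed (23.6% higher and 22.1% lower). Their median log2 fold change was 0.39, beside 0.07 for all tested genes. Without any one of the libraries without Dox, 10 or 11 genes were called in place of 17. Slc48a1, which moves haem out of the phagolysosome, had 44.0 to 59.5 CPM without Dox and 30.4 to 45.9 CPM with Dox and did not pass (edgeR adjusted p = 0.115). Blvrb, a biliverdin reductase that is also abundant in red cell precursors, fell by 0.76 on the log2 scale (standard error 0.16, adjusted p = 0.0040), but by 0.17 with the length trend removed (adjusted p = 0.405) and by 0.44 with library size only (adjusted p = 0.0507). Hp, which encodes the haemoglobin-binding plasma protein haptoglobin and is also expressed by neutrophils, had 3 to 13 counts without Dox and 137 to 177 counts with Dox (adjusted p = 0.00061).

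Of 5 genes of iron storage, all tested, 3 were lower and 1 was higher, where 45.6% of all tested genes passed. Fth1, the heavy chain of ferritin, fell from 994, 903 and 833 CPM to 160, 185 and 213 CPM (log2 fold change -2.29 ± 0.16 (SE), edgeR adjusted p = 5.64e-06). Ftl1, the light chain, rose from 618, 537 and 594 CPM to 841, 838 and 707 CPM (log2 fold change 0.45 ± 0.14 (SE) and adjusted p = 0.0266), a call that held in 1 of the 6 fits that left out a library; with the length trend removed it was 1.32 (adjusted p = 6.16e-05). Both have processed pseudogene copies in the mouse genome, so their counts depend on how shared reads were assigned. Pcbp1, an RNA-binding protein that also delivers iron to ferritin, had the largest fall of the list, from 412 ± 48 to 43.5 ± 5.8 CPM (SD, n = 3 per group; adjusted p = 1.96e-06), and Ncoa4, the receptor that sends ferritin to the lysosome, fell by 0.96 on the log2 scale (standard error 0.23, adjusted p = 0.0073).

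Of 10 genes of iron transport and reduction, 7 were tested, 2 were higher and 2 were lower, a share of calls not far from the 45.6% of all tested genes. Tfrc, the transferrin receptor, which red cell precursors and dividing cells express, rose from 216 to 246 CPM in the libraries without Dox to 306 to 329 CPM in those with Dox (edgeR adjusted p = 0.0327); 5 of the 6 fits that left out a library lost this call, as did removal of the length trend (log2 fold change 0.19, adjusted p = 0.303). Slc11a2, the endosomal iron transporter DMT1, fell by 1.64 (SE 0.37, adjusted p = 0.0051), and Steap3, the endosomal ferric reductase, fell by 1.98 (SE 0.39, adjusted p = 0.0024) on the log2 scale. Cp, which encodes ceruloplasmin, the oxidase that loads exported iron onto transferrin, rose from 18.6 ± 3.0 CPM to 71.1 ± 14.1 CPM (SD, n = 3 per group; adjusted p = 0.00014). Hamp, the gene for the hormone hepcidin that removes ferroportin from the cell surface, had 0 counts in all libraries.

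Ferroportin, ferritin and transferrin receptor mRNAs share the iron-responsive element, a hairpin bound by the iron regulatory proteins when cell iron is low. In a 5′ UTR this binding blocks translation, and in a 3′ UTR it protects the mRNA. The elements are shown because Slc40a1 was the only one of the 10 genes with a match, and because Fth1, Ftl1 and Tfrc, which also carry it, had calls in different directions. A match was the loop CAGTGN (not with G last) between 5 paired bases, after an unpaired C and a lower stem, on the transcript's strand. Of 21877 protein-coding genes of GENCODE M21 (build GRCm38), 24 (0.11%) held it in a transcript. Sequences are the DNA letters of the transcript strand, with the loop in capitals. They lie at chr1:45925465-45925493 (minus strand, 5′ UTR of Slc40a1), chr19:9982732-9982760 (plus strand, 5′ UTR of Fth1), chr7:45459779-45459807 (minus strand, 5′ UTR of Ftl1) and chr16:32631219-32631247 (plus strand, 3′ UTR of Tfrc, the first of 4 matches there).
Slc40a1: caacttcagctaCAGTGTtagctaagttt
Fth1: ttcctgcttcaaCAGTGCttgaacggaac
Ftl1: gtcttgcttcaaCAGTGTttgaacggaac
Tfrc: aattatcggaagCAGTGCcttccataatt
Of the 3 mRNAs shown with the element in the 5′ UTR, Fth1 fell, Ftl1 rose and Slc40a1 did not pass the threshold. Of the lists used here, Alas2 and Megf10 also held a match; Alas2, which encodes the first enzyme of haem synthesis in red cell precursors, rose by 1.10 on the log2 scale (SE 0.15 and edgeR adjusted p = 0.00029), and Megf10 did not pass the filter on low counts. RNA counts do not measure the translation that this element controls.

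Of 8 sensors and regulators of iron and haem, 4 passed the threshold, all higher, where 23.6% of all tested genes were higher and 22.1% lower. Fbxl5, the iron-sensing subunit of the ligase that degrades iron regulatory protein, rose from 19.7 ± 3.0 to 54.1 ± 3.4 CPM (SD, n = 3 each; edgeR adjusted p = 0.0005). Nfe2l2, which encodes NRF2, rose by 0.81 on the log2 scale (standard error 0.19, adjusted p = 0.0071), as did its partner gene Mafg by 0.73 and its inhibitor gene Keap1 by 0.80. With libraries left out in turn, Nfe2l2 kept its call in 4 of 6 fits and Mafg and Keap1 in 2 of 6 each, with adjusted p-values up to 0.12, and Mafg lost it with the length trend removed (adjusted p = 0.0806). Bach1, the haem-sensing repressor of Spic and Hmox1, had 40.5 to 45.4 CPM without Dox and 49.5 to 68.3 CPM with Dox, without overlap, and did not pass (adjusted p = 0.059).

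**Figure D4:**
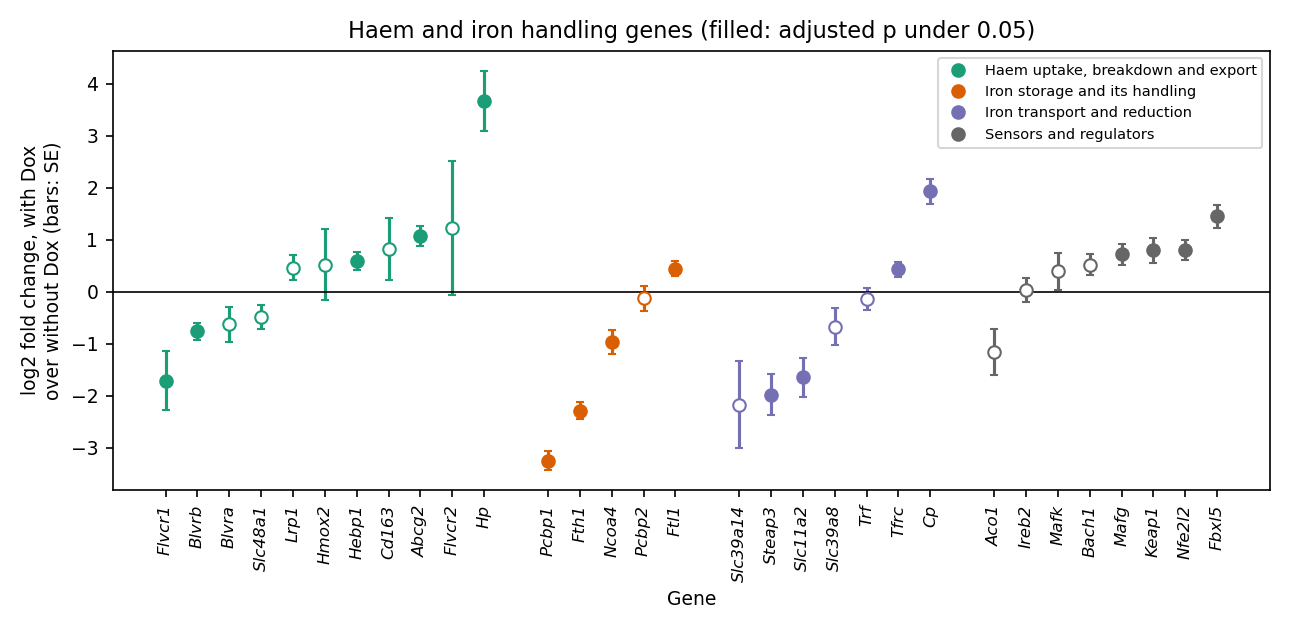
Log2 fold change (with Dox over without Dox, bars are SE) of the 31 tested haem and iron handling genes other than the 10 genes described, grouped by role and ordered within each; filled points have an adjusted p-value under 0.05. Pcbp1 at -3.24 and Hp at 3.68 mark the ends.

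Transcription factors of macrophages and of the haem and lysosome response, 21 genes of which all were tested, had 13 higher and 2 lower (23.6 and 22.1% of all tested genes), with a median log2 fold change of 1.35 beside 0.07 for all tested genes. Spib, a relative of Spic that is expressed in B cells and plasmacytoid dendritic cells, rose from 2.21 ± 1.18 to 71.4 ± 8.9 CPM, and Bach2, a relative of Bach1 that is expressed in B cells, rose from 14.7 ± 1.1 to 279 ± 18 CPM (SD, n = 3 each; edgeR adjusted p = 5.5e-06 and 5.37e-07). Id3, an inhibitor of E proteins that lymphocytes also express, fell from 294 ± 11 to 16.6 ± 9.5 CPM (SD, n = 3 per group; adjusted p = 4.7e-05). Spi1, which encodes PU.1, rose from 1.70 to 7.46 CPM in the libraries without Dox to 16.7 to 38.3 CPM in those with Dox (adjusted p = 0.0042). Nr1h3, which encodes the sterol receptor LXR alpha, did not pass (adjusted p = 0.12), nor did Pparg (adjusted p = 0.479).

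Complement genes other than C1q, 26 listed and 21 tested, had 16 past the threshold, all higher (23.6% of all tested genes were higher), with a median log2 fold change of 1.57 against the all-gene 0.07. C1ra and C1s1, the proteases that join C1q in the first component of complement, rose by 1.51 (SE 0.42) and 1.57 (SE 0.37) on the log2 scale (edgeR adjusted p = 0.0144 and 0.0065); C1ra kept its call in 3 of 6 fits with a library left out. C3, the central component, rose from 44.3 ± 4.1 to 217 ± 43 CPM (SD, n = 3 per group; adjusted p = 1.54e-05). The largest rises were in Cr2, a complement receptor of B cells and follicular dendritic cells, from 0.803 ± 0.696 to 172 ± 27 CPM, and Clu, the secreted inhibitor clusterin, from 17 ± 0.54 to 427 ± 108 CPM (SD, n = 3 per group; adjusted p = 3.09e-06 and 1.2e-06). Calr, a chaperone that C1q can bind at the cell surface, rose by 1.02 on the log2 scale (standard error 0.20, adjusted p = 0.0024).

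Genes for the engulfment of red cells and dying cells, 18 listed and 14 tested, had 10 higher and 1 lower, against 23.6 and 22.1% of all tested genes, and their median log2 fold change was 1.44 (all tested genes 0.07). Mertk, an engulfment receptor of macrophages, rose from 21.0, 28.4 and 24.6 CPM to 111, 90.7 and 90.5 CPM (edgeR adjusted p = 4.64e-05), while its relative Axl did not pass (adjusted p = 0.416). Mfge8, a bridging protein, rose from 41.5 ± 10.2 to 254 ± 95 CPM, and Itgb3, an integrin chain shared by platelets and phagocytes, rose from 8.71 ± 0.87 to 101 ± 13.6 CPM (SD, n = 3 per group; adjusted p = 0.00012 and 2.88e-06). Rac1, a small GTPase of engulfment that most cells express, fell from 302 ± 10 to 81.5 ± 9.2 CPM (SD, n = 3 per group; adjusted p = 1.43e-05). Cd47, the signal on red cells and other cells that restrains engulfment, rose by 0.87 on the log2 scale (standard error 0.14, adjusted p = 0.00074), and its macrophage receptor gene Sirpa rose by 1.42 (SE 0.29, adjusted p = 0.0030).

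Partners of VCAM1 and related adhesion genes, 8 listed and all tested, had 4 higher and 2 lower, where 45.6% of all tested genes passed, and a median log2 fold change of 0.86 (all tested genes 0.07). Itga4, a chain of the main VCAM1 receptor VLA-4, rose by 1.35 on the log2 scale (standard error 0.17, edgeR adjusted p = 0.00015), and its other chain Itgb1 did not pass (log2 fold change 0.37, adjusted p = 0.0872). Itgb7 and Icam1 rose by 2.26 (SE 0.43) and 1.62 (SE 0.43), and Itgal and Itga9, which lymphocytes and other cells express, fell by 1.36 (SE 0.30) and 0.67 (SE 0.19), all as log2 fold changes with adjusted p-values of 0.0018 to 0.0163. Icam1 kept its call in 4 of 6 fits with a library left out and Itga9 in 5 of 6, and Itga9 lost it with library size only (adjusted p = 0.14).

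**Figure D5:**
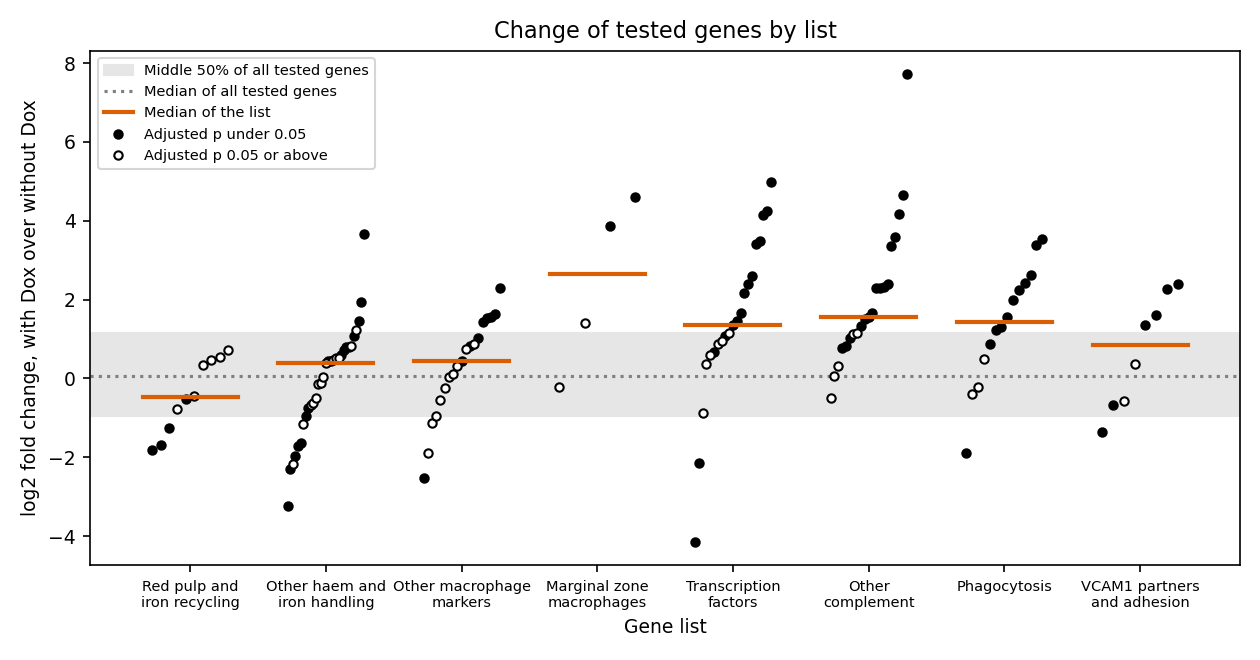
Log2 fold change (with Dox over without Dox) of each tested gene by list; each point is a gene, orange lines are list medians and the grey band is the middle 50% of all tested genes. The 10 red pulp and iron recycling genes have a median of -0.48, and the complement list has a median of 1.57.

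Markers of other cells also moved with the groups; the counts that follow stand against 23.6% higher and 22.1% lower among all tested genes. The summed level of 7 B cell markers was 28.4 to 36.8 CPM without Dox and 1583 to 1704 CPM with Dox, and that of 12 neutrophil markers was 53.9 to 70.9 and 2309 to 2447 CPM, with Ly6g at 0 counts in all libraries without Dox. All 7 B cell markers and all 12 neutrophil markers were higher. The 7 monocyte markers (5 higher, 1 lower) summed to 47.2 to 66.3 and 190 to 295 CPM, the 7 dendritic cell markers (6 tested, 6 higher) to 9.49 to 14.0 and 107 to 117 CPM, and the 4 megakaryocyte markers (4 higher) to 58.8 to 69.8 and 206 to 263 CPM. The 10 T cell markers (9 lower) summed to 1795 to 1927 CPM without Dox and 195 to 237 CPM with Dox. Erythroid markers, 11 of the 12 found, had 6 higher and 2 lower. Of the haemoglobin genes, Hba-a1 and Hba-a2 rose (log2 fold changes 0.95 and 1.015, edgeR adjusted p = 2.97e-05 and 2.18e-05). Hbb-bs fell (log2 fold change -1.23, adjusted p = 4.44e-05), and Hbb-bt did not pass (adjusted p = 0.361). With the length trend removed, Hbb-bs did not pass (adjusted p = 0.09) and Hbb-bt was higher (adjusted p = 0.0161). The part of these shifts in the levels of the 10 genes was not tested. The 10 genes together made up 0.0627, 0.0683 and 0.0823% of library counts without Dox and 0.105, 0.0988 and 0.0733% with Dox, and the groups overlapped (exact two-sided permutation p = 0.2).

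The genes most like Spic, Slc40a1, Hmox1 and C1qa were sought among the other 14109 tested genes by the root mean square difference of centred log2 CPM over the 6 libraries. Closest to Slc40a1 were Camta2, Chek2 and Cnpy4, with differences of 0.059 to 0.076. Closest to Spic were Marchf6, Myo10 and Virma, at 0.12 to 0.13. Closest to Hmox1 were Stat5b, Mrps18a and Il1rl2, at 0.11 to 0.12, and closest to C1qa were Polr3a, Glt8d1 and Lamtor1, at 0.10 to 0.12. None of these 12 genes is in the lists of macrophage or iron genes used here.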

How the data were processed

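The authors deposited 1 table of raw counts per Entrez gene ID, 1 column per library. STAR, featureCounts and build GRCm38 are named in the submitters' processing notes; versions, annotation, strand setting and treatment of multi-mapping reads are not given in the sources used here. Libraries were made with a kit that primes on poly(A) and reads 3′ ends, per the labels' protocols. All columns matched a sample title. Symbols from RefSeq (GRCm38.p6) matched 39374 of 40808 IDs.

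Low counts were removed with filterByExpr (at least 10 counts, total at least 15), and the rest were scaled with TMM and tested with edgeR 4.0.16 (R 4.3.3; quasi-likelihood F-test, 6 libraries, no covariate), with Benjamini-Hochberg adjustment over 14110 genes and a threshold of 0.05. SEs were obtained as the fold change over the root of F. Ratios used counts with 0.5 added and exact permutation tests (scipy 1.17.1). No pair of replicates was within counting noise (chi-square per degree of freedom at least 6.85). The test was checked on simulated data with the same dispersion in both groups, so the check does not cover their unequal spread. Alternatives used RLE, upper-quartile and no scaling factors, other filters, DESeq2 1.42.0, limma 3.58.1, an adjusted p of 0.01, genes or libraries left out and, added after seeing the data, removal of a length trend.

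The 10 genes and all gene lists (219 entries, 1 not found, written from general knowledge) were chosen with earlier results of these data known. Genes were named by rule: the 10 genes; in each of 7 lists the 2 with the largest rise and the 2 with the largest fall among those past the threshold, with groups that did not overlap and at least median expression; and the 3 genes nearest in pattern to Spic, Slc40a1, Hmox1 and C1qa. Any other gene of a list was chosen for mention with its values known.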

Additional observations from a re-analysis of the deposited data

How the results depend on the processing

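No paired analysis was possible because replicates 4 to 6 have no counterpart number among replicates 10 to 12. Of the 10 genes, the number higher with Dox was 0, but 1 with upper-quartile factors, with no low-count filter, with DESeq2, with limma-voom and with the length trend removed, 2 with at least 10 counts required in every library and 3 with library size only; leaving out single libraries gave 0 to 3. The number lower was 4, but 2 with the length trend removed, 3 with upper-quartile factors, library size only, at least 10 counts in every library or an adjusted p under 0.01, 5 with no low-count filter or limma-voom, and 2 to 4 when single libraries were left out. C1qc reversed to 0.25 with the length trend removed; the cause was not tested. At an adjusted p under 0.01, which can only lower a count, 2200 of all genes were higher in place of 3324, and 11 haem and iron genes, 3 macrophage markers and 1 marginal zone gene were called in place of 17, 9 and 2. Leaving out single libraries gave 10 to 19 haem and iron genes, 4 to 10 macrophage markers and 1 or 2 marginal zone genes. Relative to Csf1r in place of Adgre1, the differences in mean log2 ratio became -0.19 for Spic, -0.17 for Slc40a1, -1.57 for Hmox1, -0.32 for Vcam1, -2.64 for Cd5l, 0.015 for C1qa, -1.93 for C1qb, -1.18 for C1qc and -1.11 for Slc11a1, a constant shift set by the choice of reference. The differences relative to Csf1r were not recomputed with single libraries left out, so the sign of the small ones is not secured. The ratio of Cd5l to Adgre1 reversed to 0.31 without Dox replicate 11 and ran from -0.83 to 0.31, and that of C1qb reversed to -0.0073 without Dox replicate 10 and ran from -0.0073 to 0.68. The ratio of C1qa to C1qb differed by 1.61 to 2.37 when single libraries were left out. With 24 to 51 counts of Adgre1 per Dox library, ratios to it carry its counting error.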
